A study of Rattus norvegicus with 2 samples.

Results

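The 10 genes described here, Atf3, Jun, Sox11, Gap43, Sprr1a, Npy, Gal, Vip, Nts and Csf1, are classically induced in sensory neurons (SNs) when their axons are cut. They were taken by symbol as textbook injury genes by a rule that uses no measured signal, although earlier results of these arrays were known when they were listed, and were read on 16 probe sets of 31042, which is 10 genes of the 14217 that have a symbol of their own on the array. The dorsal root ganglia (DRGs) came from 4-week-old female Sprague-Dawley rats in which 100000 IP-B12 cells, a rat lung carcinoma line that grows osteolytically, had been placed 14 days before into the right tibia, in its marrow. The DRGs belonging to the inoculated leg (tumor side) were measured on 1 array, and those belonging to the left leg of the inoculated rats, which had no described sham injection (control side), on 1 array. How many rats stand behind an array, and which segmental levels of DRG were taken for it, is not stated in the labels or methods, so that the share of neurons reaching the tibia is not known. Both sides were exposed to a tumor-bearing animal. Replicate error cannot be estimated from single arrays, and every difference below is a difference between these arrays, without a test.

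When the axon of a DRG neuron is cut, signals carried back to the cell body switch on a regeneration program. The transcription factors ATF3, c-Jun and SOX11 act early in it, GAP-43 and SPRR1A are made for the regrowing axon, and the neuropeptides galanin, NPY, VIP and neurotensin take the place of peptides such as substance P. Injured neurons also release CSF1, which acts on macrophages and microglia through the receptor CSF1R. The question put to the arrays was whether the ganglia of the tumor side show such a state.

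c-Jun and ATF3 bind DNA in pairs at AP-1 sites and cAMP response elements (CREs), so the sequence before the start of the member genes was searched for these sites. RefSeq promoter entries (build GRCr8, 250 bases before and 50 after the start) were found for 6 of the 10, Sprr1a, Npy, Gal, Vip, Nts and Sox11. The AP-1 site TGANTCA, searched on both strands, was in 2 of these 6 and in 7.33% of all 33469 promoter entries. The full CRE, TGACGTCA, was in 0 of the 6 and in 1.83% of all, and its 6-base part TGACGT, which every full CRE also holds, was in 1 of the 6 and in 7.94% of all. The stretches with a match are shown because they are the places before member genes where these letters occur, with the match in capitals. The Sprr1a stretch lies at chr2:180752716-180752792 on the minus strand, 167 to 91 bases before the start, and holds 2 AP-1 matches. The Nts stretch lies at chr7:39461074-39461120 on the minus strand, 232 to 186 bases before the start. The Vip stretch lies at chr1:44470363-44470408 on the plus strand, 117 to 72 bases before the start. All are read 5′ to 3′ on the strand of the gene and lie upstream of its start.
Sprr1a: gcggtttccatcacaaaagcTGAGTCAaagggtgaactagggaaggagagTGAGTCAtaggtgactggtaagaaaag
Nts: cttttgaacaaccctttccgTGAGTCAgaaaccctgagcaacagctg
Vip: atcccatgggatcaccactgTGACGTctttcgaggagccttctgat
A match describes the letters and does not show that a factor binds there, and the arrays hold no binding data.

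None of the 10 members reached a fold of 2 in either direction. Over all 14217 genes, 4.31% were on the tumor side at least 2 times higher and 3.71% at least 2 times lower, most of them dim. Of the members, 3 were higher and 7 lower, and the same 3 (Gal, Jun and Vip) lay above the median log2 ratio of all genes, which was 0.08. The median log2 ratio of the 10 was -0.15. The 7 include Sprr1a, whose signals were too dim to give a measure of a difference. A gene was read on its brightest probe set. A signal rule, a mean log2 signal over both arrays at or above the median of all probe sets (a geometric mean of 70.2), was met by 6 members, Atf3, Jun, Gap43, Npy, Gal and Csf1, and missed by Sox11, Sprr1a, Vip and Nts. Among the 9510 genes that meet this rule, 0.0631% were at least 2 times higher and 0.116% at least 2 times lower. At a fold of 1.5 these shares were 0.873% and 0.484%, and none of the 6 members above the rule reached that fold in either direction. The split of genes above the rule depended on the scaling, with 6 at least 2 times higher and 11 lower as deposited, and 4 higher and 14 to 16 lower after quantile normalization, centring or loess. At a fold of 1.5 the balance turned, from 83 higher and 46 lower as deposited to 46 higher and 68 to 70 lower after those scalings, under which Npy also passed that fold.

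**Figure D1:**
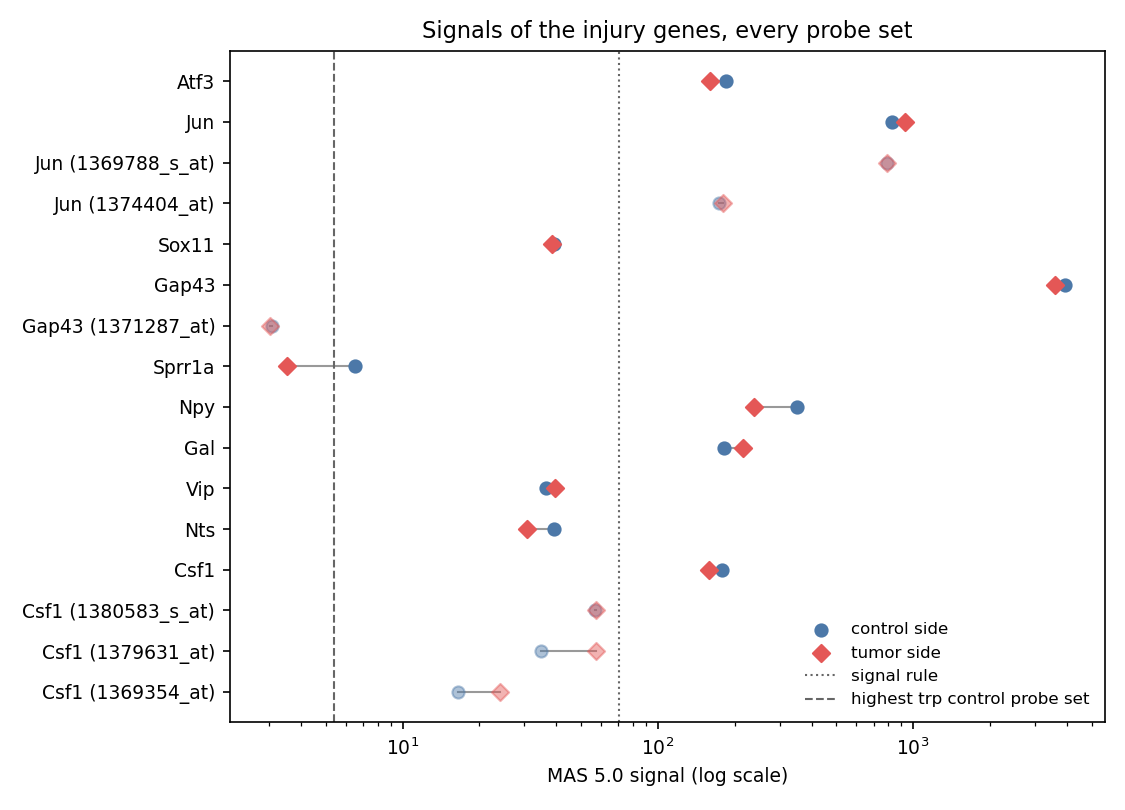
MAS 5.0 signal (log scale) of every probe set of the 10 injury genes on the control-side array (circle) and the tumor-side array (diamond), with a line joining both values of a probe set. Full colours mark the brightest probe set of a gene and pale colours the others. The dotted line is the signal rule (70.2) and the dashed line the highest trp control probe set on the control-side array (5.39). Npy (350 and 238) and Sprr1a (6.49 and 3.53) show the widest gaps among the brightest probe sets, both with the lower signal on the tumor side.

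The transcription factors at the head of the injury program differed little between the sides. Atf3, close to silent in uninjured SNs and a common marker of cut ones, had on probe set 1369268_at a signal of 184 in control-side and 160 in tumor-side DRGs, a log2 ratio of -0.20. The tumor side was thus the lower one for the gene most used to mark axotomized neurons. To give a scale, the log2 ratios of the 500 probe sets nearest in mean signal were taken. Their 5th to 95th percentile, outside which 10% of such neighbours lie by construction, is called the local range below. For Atf3 it ran from -0.24 to 0.41, and its ratio lay inside.

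Jun, which encodes the AP-1 subunit c-Jun, had on 1389528_s_at 823 in control-side and 931 in tumor-side DRGs, a log2 ratio of 0.18 within a local range of -0.11 to 0.27. A second probe set (1369788_s_at) gave 787 and 791, and a further one (1374404_at) 173 and 180. Jun was therefore higher on the tumor side on all 3 probe sets, by log2 ratios of 0.18, 0.01 and 0.06, with an SD of 0.09 between them, but only the first lay above the median of all genes (0.08). The first and the second are marked in their names as sharing probes among several transcripts. Sox11, a factor of neurite growth that is high in embryonic neurons, had on 1387275_at 39.2 in control-side and 38.5 in tumor-side DRGs, a log2 ratio of -0.03. At this signal the local range was wider, from -0.67 to 0.79.

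Of the growth-associated genes only Gap43 gave a measure of a difference, and it was lower on the tumor side. Gap43, whose protein sits at the inner membrane of growth cones, had on 1367930_at 3935 in control-side and 3582 in tumor-side DRGs, a log2 ratio of -0.14. This lay below its local range of -0.06 to 0.18, although the signal fell by 8.98% from control to tumor side. A second probe set of Gap43 (1371287_at) had 3.08 and 3.01, at or under the highest trp control probe set of its array (5.39 for the control side, 4.63 for the tumor side), and carries no information on a difference. The trp probe sets read a bacterial transcript and serve here as a mark of dim signal. Sprr1a, a cornified envelope protein that neurons make after axotomy, had on 1371248_at 6.49 in control-side and 3.53 in tumor-side DRGs. Its tumor-side signal was under the highest trp probe set of that array, and its control-side signal just above the highest of the other. Its log2 ratio of -0.88 thus stands at a signal where the local range ran from -2.86 to 3.16. The only probe set of Sprr1a was close to the highest trp probe set on both arrays, and it gives no measure of a difference.

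The 4 neuropeptide genes went in both directions. Npy, which encodes neuropeptide Y and is induced mainly in large SNs after axotomy, had on 1387154_at 350 in control-side and 238 in tumor-side DRGs. It was 1.47 times lower on the tumor side (log2 ratio -0.56), which fell below its local range of -0.21 to 0.36, the widest departure from the local range among the members. With quantile normalization, centring or loess the log2 ratio of Npy was -0.65, -0.64 and -0.65, past a fold of 1.5. Gal, which encodes galanin, had on 1387088_at 181 in control-side and 216 in tumor-side DRGs, a log2 ratio of 0.25 that was the highest of the 10 and lay within its local range of -0.26 to 0.39. Vip, which encodes vasoactive intestinal peptide, had on 1377146_at 36.6 and 39.4, a log2 ratio of 0.10 within a local range of -0.65 to 0.82. Nts, which encodes neurotensin, had on 1380967_at 39.4 in control-side and 30.7 in tumor-side DRGs, a log2 ratio of -0.36 within a local range of -0.79 to 0.79. Gal and Vip had the higher signal on the tumor side and Npy and Nts on the control side, but only Npy lay outside its local range.

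NPY is also made by sympathetic neurons, whose fibres the RNA signals here do not measure. Of the genes of their transmitter noradrenaline, chosen after the values were seen, Th had 50.7 in control-side and 48.4 in tumor-side DRGs, and Dbh 27.7 and 22.0, both under the signal rule, while the vesicle transporter gene Slc18a2 gave 117 and 152 on the brightest probe set, and 55.3 and 57.8, and 42.1 and 34.7, on dimmer ones, so that its probe sets did not share a direction. Blood and muscle genes were lower on the tumor side as Npy was. All 3 measured erythroid markers were lower (summed signal 4282 and 3314), as were 3 of 4 granulocyte markers (1164 and 559). Of 12 skeletal muscle markers 11 were lower, 10 of them by a fold of 2 or more, with a median log2 ratio of -1.70. The exception, Myh1 (1583 and 1742), makes up most of their summed signal (2960 and 2165). The part of sympathetic neurons, blood or muscle in the signal of Npy was not tested. In whole ganglia, fewer cells of a type and less RNA per cell cannot be told apart.

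Csf1, the signal of injured SNs to macrophages and microglia, had 178 in control-side and 159 in tumor-side DRGs on its brightest probe set (1380582_at), a log2 ratio of -0.17 within a local range of -0.23 to 0.41. Its other 3 probe sets were higher on the tumor side, with 56.5 and 57.4 on 1380583_s_at, with 34.9 and 57.5 on 1379631_at, and with 16.5 and 24.1 on 1369354_at. Their log2 ratios were 0.02, 0.72 and 0.54, and the 0.72 lay above its local range of -0.62 to 0.67. The SD between the 4 probe sets of Csf1 was 0.42, and the mean over them was 0.28. The direction of Csf1 therefore depends on the probe set.

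**Figure D2:**
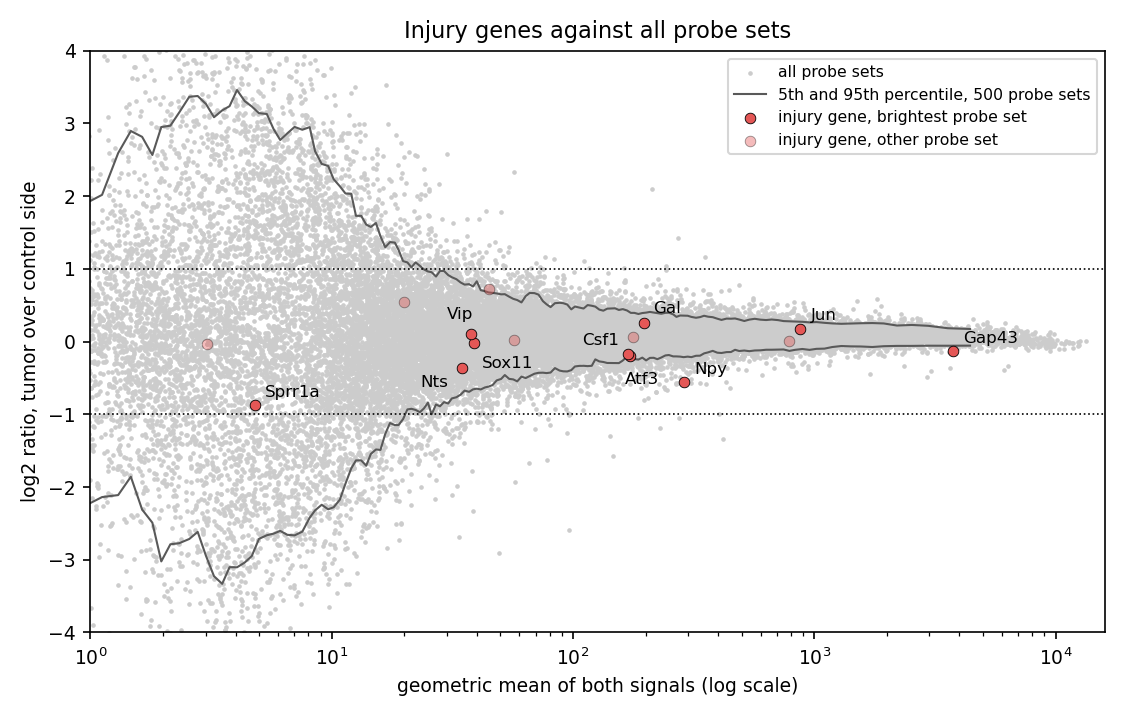
Log2 ratio (tumor over control side) against the geometric mean of both signals (log scale), 1 point per probe set, with the injury genes in red (pale for probe sets other than the brightest). Grey lines are the 5th and 95th percentile over 500 neighbouring probe sets, dotted lines a fold of 2, and the axes leave out probe sets with a mean under 1 or a log2 ratio beyond 4 in size. Npy (-0.56) and Gap43 (-0.14) lie below the lines, a dim probe set of Csf1 (0.72) lies just above them, and all red points lie inside a fold of 2.

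Of the 10 members, 8 lay within their local range, 2 below it and 0 above it. Over the 16 probe sets, 8 were higher and 8 lower on the tumor side, and 0 differed by a fold of 2. Beside this, 4.31% of all genes, each on its brightest probe set, were that much higher and 3.71% that much lower. The local range is a spread over different probe sets of the same arrays. It is not replicate error and sets no limit of detection. At the signals of Atf3, Gal, Csf1, Npy, Jun and Gap43 it lay well inside a fold of 2 in either direction, whereas at the signal of Sprr1a even a fold of 4 would lie inside it.

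Genes outside the 10 that respond to axotomy in SNs were also read. Of 24 further axotomy-induced genes, 23 were measured, and 0 of them were at least 2 times higher or lower. Of all genes, 4.31% were that much higher and 3.71% lower, and of genes above the signal rule 0.0631% and 0.116%. The counts past this fold in the lists below stand against the same shares. The median log2 ratio of the 23 was 0.10, and 12 of them lay above the median of all genes (0.08). For the 14 that met the signal rule the median was 0.06, with 6 above that of all genes. Sdc1, a cell surface proteoglycan, had 61.4 in control-side and 82.0 in tumor-side DRGs. Flrt3, an adhesion molecule of growing neurites, had 364 and 462, a log2 ratio of 0.34 just above its local range of -0.15 to 0.32. Cebpd, a transcription factor, had 287 and 327, and Arg1, an enzyme of polyamine synthesis that promotes regrowth, was on the other side with 99.8 and 81.8. The brightest of the list hardly differed, with 3731 and 3668 for the heat shock protein gene Hspb1, 1078 and 1116 for Stat3, a mediator of the retrograde injury signal, and 1016 and 1060 for Cacna2d1, the calcium channel subunit bound by gabapentin. Adcyap1, Gadd45a, Klf6 and Smad1 were among the 14 of the list above the signal rule, whose ratios ran from -0.29 to 0.42.

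Genes that SNs turn down after axotomy, the other arm of the injury program, mostly differed by small ratios in both directions. Of 18 such genes, 16 were measured, and 0 were lower by a fold of 2. Their median log2 ratio was -0.002, with 8 higher and 8 lower, under the median of all genes (0.08). Above that median lay 5 of the 16, beside 3 of 14 growth cone and axon growth genes and 1 of 9 general markers of SNs. Of the 16, 15 met the signal rule, with ratios from -0.13 to 0.18. Scn9a, the sodium channel of nociceptors, had the lowest of these, with 4855 in control-side and 4436 in tumor-side DRGs, below its local range of -0.06 to 0.17. Scn10a, another nociceptor sodium channel gene (1256 and 1167, log2 ratio -0.11), also lay below its local range. So did Trpv1, the heat and acid channel gene, on its brightest probe set (996 and 916, log2 ratio -0.12). None of the 15 lay above. A second probe set of Trpv1 had 306 and 283, a log2 ratio of -0.11 within its local range of -0.21 to 0.36. A dim further one had 8.93 and 3.12. Calca, which encodes the first form of CGRP, had 9589 and 9765. Calcb, which encodes the second form of CGRP, had 2948 and 3344. Sst, which encodes somatostatin, had 641 and 703, and P2rx3, the ATP receptor of nociceptors, 2107 and 2292. The neurofilament genes Nefm and Nefh had 12688 and 12203, and 9755 and 9553. The only gene of the 16 past a fold of 2 was the opioid receptor gene Oprm1, higher on the tumor side. It had 3.33 for the control, no higher than the highest trp probe set, and 31.7 for the tumor side, so that no fold is given. Its second probe set had 8.30 and 11.5.

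Among the partners of c-Jun and ATF3 and the kinases above them, those that met the signal rule were nearly level. Of 17 measured AP-1 and ATF factors and stress kinases, 8 met it, with a median log2 ratio of 0.001 and ratios from -0.13 to 0.13. The others were dimmer, where local ranges are wider. Over all 17 the median was 0.10, with 11 higher and 6 lower, and 9 lay above the median of all genes. Atf4, the factor of the integrated stress response, had 3338 in control-side and 3645 in tumor-side DRGs, and Jund, the AP-1 subunit of resting cells, 1623 and 1635. Atf5 had 511 and 549, and Mapk9, which encodes the c-Jun kinase JNK2, 267 and 292. Map3k12 encodes DLK, the kinase that carries the injury signal from the axon to c-Jun. It had 520 and 475, a log2 ratio of -0.13 just below its local range of -0.12 to 0.30. Past a fold of 2 and higher on the tumor side were 3 of the 17, Batf, Fosl2 and Fosb. The control-side signal of each was no higher than the highest trp probe set. Growth cone and axon growth genes, which accompany Gap43 in growing axons, had a median log2 ratio of 0.003 over 14 measured, and 0 of them reached a fold of 2. Of the 14, 3 lay above the median of all genes, Dpysl3 (309 and 367), Dpysl5 (293 and 319) and the cell adhesion gene Ncam1 (490 and 521). The adhesion gene L1cam (769 and 708) and Dpysl2 (8246 and 7836) lay below their local ranges, at log2 ratios of -0.12 and -0.07. Stmn2, a microtubule regulator of growth cones, had 10037 and 10218, and the neuronal tubulin gene Tubb3 7577 and 7364.

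The receptors through which the members' products act were measured for all 13 listed genes, of which 7 met the signal rule with a median log2 ratio of 0.06, while the median of all 13 was 0.31. Ntsr2, a neurotensin receptor, had 62.3 in control-side and 94.5 in tumor-side DRGs, a log2 ratio of 0.60 above its local range of -0.44 to 0.51. Sort1, which encodes the sorting receptor sortilin that also binds neurotensin, had 316 and 402, above its local range of -0.16 to 0.33, with 69.7 and 70.5 on a second probe set. Npy1r, a main NPY receptor of SNs, had 737 and 747, and Adcyap1r1, the PACAP receptor gene, 112 and 106. Past a fold of 2 were only genes below the rule, Vipr2 (10.4 and 25.7) and Ntsr1 (3.33 and 11.7) higher on the tumor side and Npy2r (21.0 and 3.47) lower. One side of Ntsr1 and of Npy2r was no higher than the highest trp probe set of its array.

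Csf1r, the receptor of CSF1 on macrophages, had 204 in control-side and 253 in tumor-side DRGs, a log2 ratio of 0.31 within its local range of -0.25 to 0.35. Of 15 macrophage genes, Csf1r included, 12 lay above the median of all genes, with a median log2 ratio of 0.18 and 0 past a fold of 2. Tyrobp, an adaptor of myeloid receptors, had 170 and 238, above its local range of -0.26 to 0.39. Il34, the other ligand of CSF1R, had 162 and 192. Mrc1 had 268 and 304, Aif1 280 and 318, and the complement genes C1qa and C1qb 310 and 341, and 69.3 and 81.8, while Cd68, a lysosomal macrophage marker, had the lowest ratio of the list, -0.15.

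**Figure D3:**
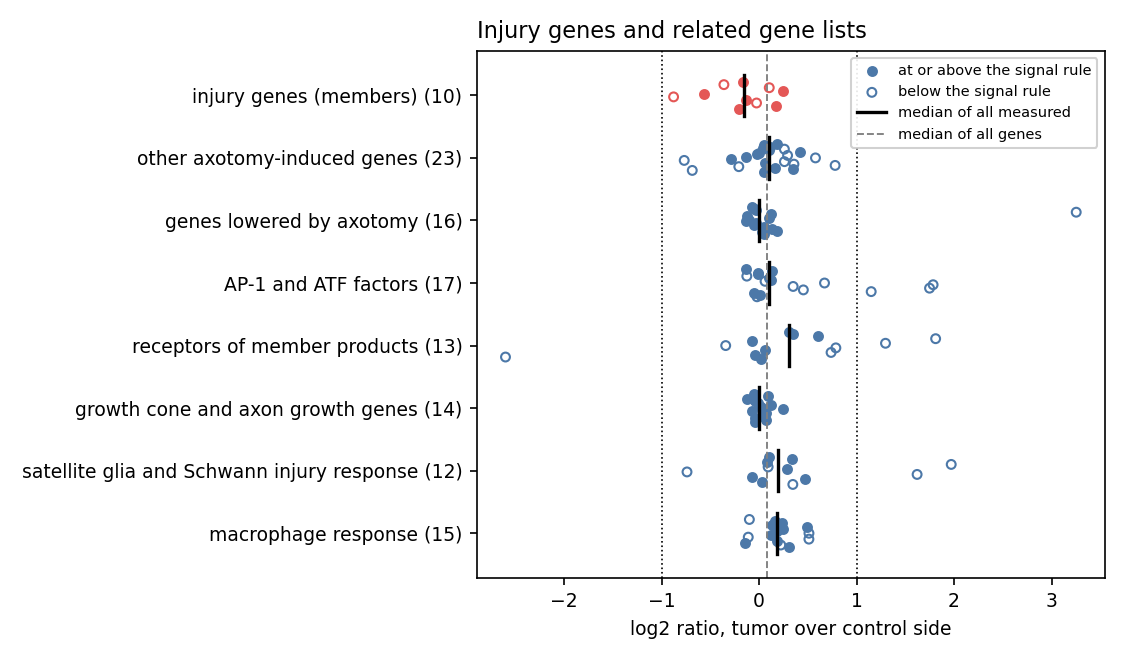
Log2 ratio (tumor over control side), 1 point per gene, for the 10 injury genes (red) and 7 related lists (blue), with the number of measured genes in brackets. Filled points meet the signal rule, black bars are medians over all measured genes, the dashed line is the median of all genes (0.08) and dotted lines mark a fold of 2. The injury genes have a median of -0.15, and every point past a fold of 2 is below the signal rule.

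The makeup of the samples was checked with marker genes. All 9 SN markers met the signal rule, with a median log2 ratio of -0.03 and summed signals of 47560 in control-side and 47265 in tumor-side DRGs. Only 1 of the 9, Uchl1, lay above the median of all genes, and Rbfox3 (1624 and 1463), Isl1 (370 and 327) and Pou4f1 (311 and 247), genes of nuclear proteins of neurons, lay below their local ranges. Pou4f1 had the lowest log2 ratio, -0.33. Markers of Schwann cells (median 0.07) and satellite glia (0.12) were near the median of all genes, and all 5 measured spinal cord markers were dim (summed signals 37.4 and 40.8). Bone markers were higher on the tumor side in 6 of 7 (summed signals 898 and 1900), and connective tissue markers also in 6 of 7, with a median log2 ratio of 0.20 and with Col1a1, Col1a2 and Postn above their local ranges. What part these differences have in the values of the members was not tested. Over all probe sets other than controls, the control-side array had a median signal of 68.8 and the tumor-side array of 72.4.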

How the data were processed

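Per the labels and the methods, RNA of DRGs was extracted with NucleoSpin RNA Plus, labelled from 100 ng of total RNA and hybridized for 16 h to Affymetrix GeneChip arrays for the rat genome. The authors deposited signal intensity values on a linear scale, made with the default settings of MAS 5.0, and these were used without further scaling. MAS 5.0 corrects background and summarises the probes of a set, and its summaries scatter more at low signal, which widens the ratios of dim genes. Detection calls were not used here. The number of arrays limits the precision.

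Log2 ratios of tumor over control side were computed without a pseudocount. Of 31042 probe sets beside 57 control probe sets, 20826 have 1 gene symbol in the platform annotation, 436 several and 9780 none. A gene was read on the brightest of its probe sets by mean log2 signal. The signal rule uses the mean of both arrays, so that neither side is favoured. Named genes are all members and, of each related list, the 4 largest ratios in size and the 3 brightest among genes above the rule, while marker lists are given by counts, medians and sums. Other genes named, and the use of the trp probe sets, were chosen after the values were seen. Sequences are from RefSeq, and the sources used here give no build for the array annotation. The members and lists were chosen with earlier results of these data known. No test was made, as each side is 1 array. The alternatives were quantile normalization, centring, loess (span 0.3), a pseudocount of 11.1 (percentile 20 of all signals), other signal filters, other folds and other ways to choose the probe set. The procedure was tested on simulated data with the same noise at every signal. Folds larger than those of the members were planted only in probe sets at or above the median signal. That test does not cover dim genes or small ratios. The tools were pandas 2.3.3 and numpy 2.4.6 in Python 3.11.15, with matplotlib 3.10.9 for the plots and statsmodels 0.14.6 for loess.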

Additional observations from a re-analysis of the deposited data

How the results depend on the processing

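None of the 10 members was at least 2 times higher or lower under any of the 9 alternative scalings, filters and choices of probe set, or at a fold of 3. The signal filters and the fold of 3 could only repeat the main count of 0, because they remove genes or ask for a larger difference. Of all genes as deposited, 4.31% were at least 2 times higher and 3.71% at least 2 times lower. At a fold of 1.5, as deposited, the count of members was 1 lower and 0 higher, the 1 being Sprr1a. Its tumor-side signal is under the highest trp control probe set, so that its fold is not measured. Of 60 log2 ratios of members under these settings, 59 stayed within 1 SD of the main value, the SD being that of the 500 probe sets nearest in signal. The exception was Csf1, at 0.28 for the mean over all its probe sets against -0.17, which is also the only direction that turned. Part of this was fixed beforehand, as the 7 members with 1 probe set repeat their main value under both other choices of probe set. The SD is also wide for dim genes. For Sprr1a it was 1.81, so that its move from -0.88 to -0.27 with the pseudocount counts as within it. The member median ran from -0.23 (centring) to 0.02 (a filter at percentile 75, which leaves only Jun and Gap43). The medians of the 7 related lists each stayed within the typical SD of their genes, a yardstick for single genes that is wide for a median. That of the receptors went from 0.31 to 0.06 among genes above the signal rule and to 0.07 with the pseudocount. That of the AP-1 and ATF factors went from 0.10 to 0.001 among genes above the rule, so these medians depend on dim genes. No paired analysis was possible because there is 1 array a side, and leaving out a replicate was not possible for the same reason. Low signal limits Sprr1a, Sox11, Vip and Nts most.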

Other observations

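Genes by which satellite glia and Schwann cells respond to nerve injury were measured for 12 of 14 listed, with a median log2 ratio of 0.19. Of the 12, 9 lay above the median of all genes (0.08). The 7 that met the signal rule had a median of 0.10, with 5 of them above that of all genes. Nes, which encodes the intermediate filament nestin, had 195 in control-side and 271 in tumor-side DRGs, a log2 ratio of 0.47 above its local range of -0.26 to 0.36. Gja1, which encodes the gap junction protein connexin-43 of satellite glia, had 1528 and 1932, above its local range of -0.07 to 0.26, while of its 2 dim probe sets 1 was higher and 1 lower on the tumor side. Sox2, a factor of immature glia, had 418 and 509. Ngfr, a neurotrophin receptor gene of glia and neurons, had 1672 and 1588, below its local range of -0.07 to 0.25. Gfap, the filament gene that satellite glia raise around injured neurons, had 39.0 and 49.6 and did not meet the signal rule. The bright glial genes Vim and Fabp7 had 7573 and 7738, and 2675 and 2875. Of the 7 genes above the rule 0 reached a fold of 2. The 2 that did, Lif and Gdnf, had control-side signals under the highest trp control probe set.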
